A study of Mus musculus with 8 samples.

Results

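Glucose breakdown and the response to low oxygen were followed through 39 genes in mouse peritoneal macrophages treated with LECT2 (leukocyte cell-derived chemotaxin 2), a protein that the liver secretes. The 39 were taken by name and function: 3 transporters of glucose or lactate, 17 glycolytic enzymes, 3 regulators of glycolytic flux, 4 oxygen-sensing genes and 12 targets of the hypoxia-inducible factors (HIFs). All 39 were among the 26148 genes tested. The macrophages, resident phagocytes of the abdominal cavity, came from the mouse peritoneum and were grown in low-glucose DMEM with 20% serum; strain, sex and age are not given in the sources used here. Cultures received LECT2 at 0.5 µg/ml (the low dose), at 5 µg/ml (the high dose) or none, for 3.5 h or 48 h. Each of the 4 groups of dose and time was measured on 2 arrays, replicate 1 and replicate 2, from 2 independent experiments with different mice; the labels do not say that a number marks the same experiment in every group. Every array carried LECT2-treated RNA in one dye and untreated RNA of the same time in the other. The oxygen, glucose and lactate of the cultures are not part of the data.

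Glycolysis turns glucose into pyruvate in the cytosol and yields ATP without oxygen. HIF-1 and HIF-2 are transcription factors made of an oxygen-labile alpha subunit, encoded by Hif1a and Epas1, and a stable partner. Prolyl hydroxylases mark the alpha subunits for destruction when oxygen is present, so much of the control of HIF acts on protein, which arrays of RNA do not measure. In macrophages, HIF-1 and glycolysis are also engaged by inflammatory stimuli at normal oxygen, and the targets include glucose transporters, most glycolytic enzymes, Vegfa, Adm and Bnip3.

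Values are log2 ratios of LECT2 over control, given for a group as replicate 1 and then replicate 2, with the mean ± the standard error of the fit (n = 2 arrays). The share of non-control spots well above background was 56.4% to 71.7% for LECT2-treated RNA and 63.6% to 82.3% for untreated RNA. Of the 39 members, 34 were well above background in both channels on all 8 arrays. The exceptions were Slc2a3, Pdk1, Adm, Ankrd37 and Mxi1. Over all genes, the replicates' ratios correlated at r = 0.414 (low dose) and 0.721 (high dose) at 3.5 h, and at 0.352 and 0.62 at 48 h. Of 10 listed macrophage markers 9 were measured, and all 9 were well above background in both channels on all arrays.

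A conflict in the deposited data touches every value. The values come from the authors' table of 1 column per sample, and 7 of the 8 columns follow the scanner file recorded under another sample better than their own. The table's columns were used with the table's labels. With the scanner files as recorded, 0 members were called by limma in 7 of the 8 comparisons below, and in the low dose at 48 h 1 was. Over all 25850 genes of that setting, 51 were called at the low dose and 48 h, 1 at the high dose and 48 h, and 0 elsewhere. Replicate 1 of the early low-dose group followed its own file, at r = 0.577. No dye swap was made, so an effect of dye and an effect of LECT2 cannot be told apart, and the labels do not say whether low- and high-dose arrays shared their untreated RNA. Signs here are LECT2 over control, which is the table's sign reversed.

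Member genes were mostly higher than in control after 48 h at the high dose, and were split between higher and lower at 3.5 h. At the high dose and 48 h, 14 of the 39 members rose and 1 fell (limma, Benjamini-Hochberg adjusted p at most 0.05 over all genes), where 11.2% of all genes were called, 4.31% higher and 6.91% lower. The median member stood at 1.02, against -0.01 over all genes. Estimates were above 0 for 32 of the 39, and for 28 of them on both arrays. The median was 1.35 on replicate 1 and 0.80 on replicate 2, so replicate 1 carried the larger values. Without either of the 2 arrays 0 of the 15 calls remained, and the calls over all genes fell from 2933 to 14 and 57. Without the background filter 9 members were called, where 1689 of 32539 genes were.

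After 3.5 h at the high dose, 7 members rose and 3 fell, where 21.9% of all genes were called, 10.2% higher and 11.7% lower. The median member was at 0.26, against -0.03 over all genes, with 20 estimates above 0. The 10 calls are a share close to that of all genes. Leaving out either array left 1 array in the group. Most of the 10 calls were then lost, as were most calls over all genes. Each of the 10 had both arrays on the same side of 0, so none could change sign. With matched scanner files and loess 16 members were called, where 8210 of 25850 genes were, against 5724 of 26148 in the main fit.

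At the low dose and 3.5 h, 1 member rose and 3 fell, where 4.89% of all genes were called, 2.75% higher and 2.15% lower. The member median was -0.10, against 0 over all genes. Without replicate 1, whose column follows its file only in part, all these calls were lost, as were most calls over all genes. Without replicate 2 most of them were lost too, though calls over all genes did not fall. At the low dose and 48 h, 0 of the 39 passed in limma, where 0.172% of all genes were called (0.153% higher, 0.0191% lower), and 7 members had an unadjusted p under 0.05. The median there was 0.26, against 0.02 over all genes, but replicate 1 had a median of 0.67 and replicate 2 one of -0.18.

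Across the comparisons with control 19 members were called at least once and 20 never. Neither this count nor those by time that follow were made over all genes, so they are not read as an excess. In the early high-dose group alone 21.9% of all genes were called. At the high dose, Adm, Ddit4, Hk2, Pfkfb3 and Slc2a1 rose at both times. Called higher at 48 h and not at 3.5 h were 9 members (Bnip3, Bnip3l, Egln3, Ero1l, Hk3, P4ha1, Pfkl, Pgk1 and Pkm), and Aldoc and Pfkp were called higher at 3.5 h only. A call at one time alone does not show that the times differ, and the test of that difference is given further on. RNA was taken from whole cultures, so fewer cells of a type and less RNA per cell cannot be told apart.

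**Figure D1:**
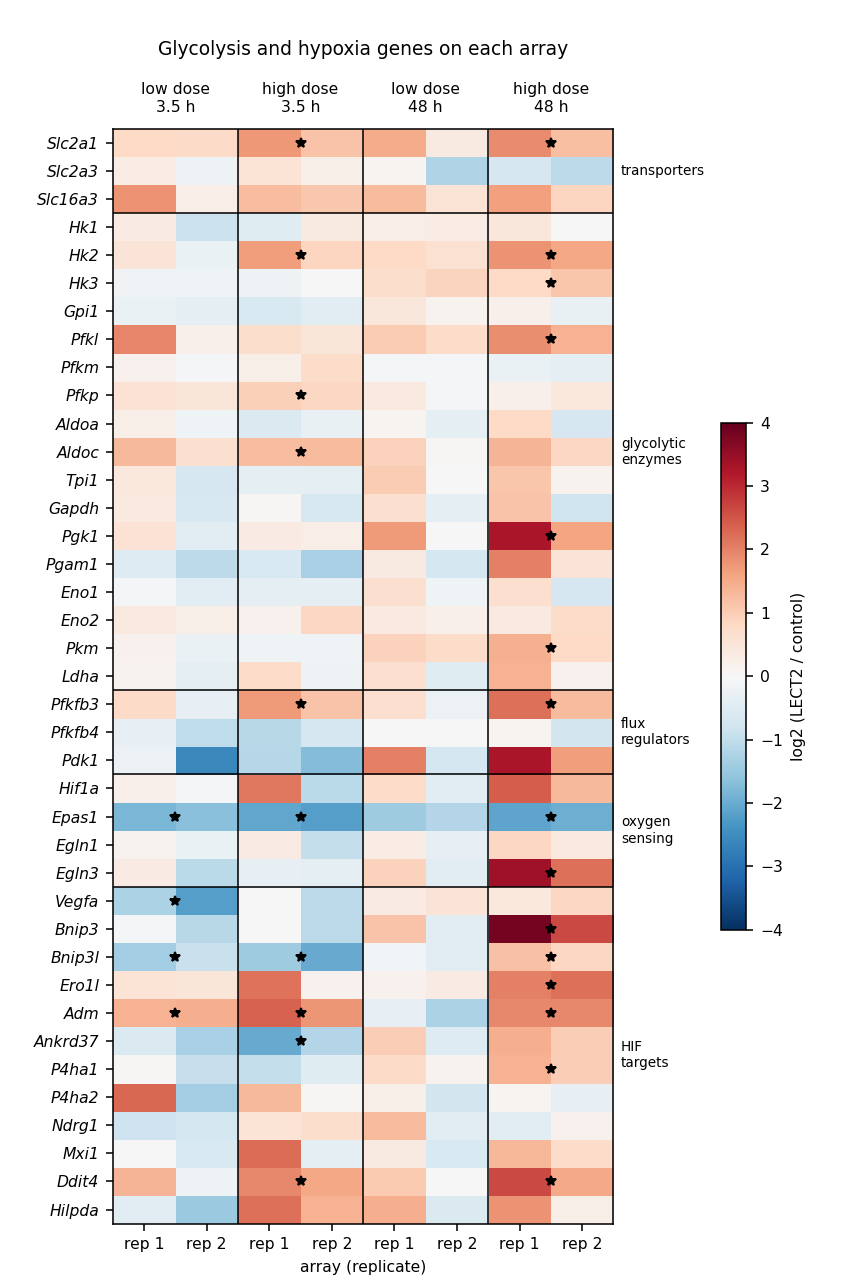
Log2 ratio of LECT2 over control for the 39 members (rows, by role) on each of the 8 arrays (columns, 2 replicates per group); red is higher with LECT2, blue lower, and a star marks a group mean with adjusted p at most 0.05. The high-dose 48 h columns hold 15 stars, 14 of them on red cells, and the low-dose 48 h columns hold none.

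The promoters of the called members with the largest mean absolute change over the 4 groups are shown, 3 of glycolytic genes and 3 of HIF targets, because the core sequence that HIF binds can be looked for in them. Each is the 250 bases before the RefSeq start on build GRCm38.p6, written in the gene's direction, with the HIF core in capitals. The core was searched as ACGTG on both strands, and in the same way as its variant GCGTG on both strands. The former also lies within the E-box CACGTG, which other factors bind. For Aldoc the window of the first of 2 listed starts is given.
Slc2a1, chr4:119108495-119108744, plus strand: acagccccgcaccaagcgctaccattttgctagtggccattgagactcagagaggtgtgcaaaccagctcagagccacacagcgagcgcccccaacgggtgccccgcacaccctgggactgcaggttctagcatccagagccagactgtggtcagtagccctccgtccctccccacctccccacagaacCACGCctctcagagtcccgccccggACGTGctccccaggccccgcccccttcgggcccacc
Pfkl, chr10:78009808-78010057, minus strand: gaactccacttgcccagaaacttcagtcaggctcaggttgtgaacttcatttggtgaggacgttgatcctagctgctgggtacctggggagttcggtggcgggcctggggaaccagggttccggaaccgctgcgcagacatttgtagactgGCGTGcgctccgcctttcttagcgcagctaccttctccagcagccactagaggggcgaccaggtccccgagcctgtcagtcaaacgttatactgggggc
Aldoc, chr11:78322823-78323072, plus strand: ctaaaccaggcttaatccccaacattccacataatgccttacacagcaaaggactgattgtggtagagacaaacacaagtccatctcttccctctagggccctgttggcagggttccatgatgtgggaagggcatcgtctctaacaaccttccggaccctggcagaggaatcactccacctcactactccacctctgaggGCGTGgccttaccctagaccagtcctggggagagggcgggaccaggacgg
Adm, chr7:110627407-110627656, plus strand: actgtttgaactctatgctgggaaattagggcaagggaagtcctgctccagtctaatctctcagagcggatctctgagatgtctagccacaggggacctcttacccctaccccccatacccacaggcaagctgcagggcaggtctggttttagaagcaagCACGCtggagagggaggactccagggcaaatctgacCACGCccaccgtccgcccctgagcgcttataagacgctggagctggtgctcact
Ddit4, chr10:59951771-59952020, minus strand: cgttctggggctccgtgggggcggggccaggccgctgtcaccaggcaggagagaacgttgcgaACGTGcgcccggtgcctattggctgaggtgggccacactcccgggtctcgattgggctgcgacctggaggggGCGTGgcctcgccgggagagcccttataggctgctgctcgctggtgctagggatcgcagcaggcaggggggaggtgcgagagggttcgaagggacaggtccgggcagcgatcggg
Bnip3, chr7:138909507-138909756, minus strand: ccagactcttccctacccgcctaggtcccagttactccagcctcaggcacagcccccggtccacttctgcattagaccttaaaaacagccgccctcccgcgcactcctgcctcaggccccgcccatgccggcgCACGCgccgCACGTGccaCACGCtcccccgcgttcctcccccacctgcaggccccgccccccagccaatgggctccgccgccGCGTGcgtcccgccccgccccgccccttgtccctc
The windows of Slc2a1, Adm and Ddit4 each hold 2 separate stretches of the core, that of Bnip3 holds 4, and those of Pfkl and Aldoc hold 1. RefSeq promoters were found for 35 of the 39 members (not Slc2a3, Epas1, Bnip3l and Ndrg1), with 52 windows in all. The core was present in 41 of these 52 (78.8%), and in 38.6% of all 32851 windows of the same length in the table. Windows were not matched on base composition. Eno2, Gpi1 and Tpi1 had no match, and these letters elsewhere in those genes were not searched.

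Of the transporters, Slc2a1, which encodes the widely used glucose carrier GLUT1, rose at the high dose at both times. Its log2 ratios were 0.80 and 0.76 at the low dose and 3.5 h, 1.74 and 1.14 at the high dose and 3.5 h, 1.5 and 0.35 at the low dose and 48 h, and 1.88 and 1.21 at the high dose and 48 h. All 8 arrays were above 0. At 3.5 h the high-dose arrays did not overlap the low-dose ones. At 48 h replicate 1 of the low dose (1.5) was above replicate 2 of the high dose (1.21), so those groups overlap. The high-dose means were 1.44 ± 0.33 at 3.5 h (2.71-fold, limma adjusted p = 0.0201) and 1.54 ± 0.33 at 48 h (2.92-fold, adjusted p = 0.0276). At the low dose the means were 0.78 and 0.92, with adjusted p of 0.213 and 0.4. Slc16a3, which exports lactate, had means between 0.91 and 1.25 in the 4 groups, and its lowest adjusted p was 0.0688. Slc2a3, a high-affinity glucose carrier, was not well above background in the LECT2 channel on either high-dose 48 h array, so no fold is given for it.

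Among enzymes of the first, ATP-using steps, 2 of the 3 hexokinases were called. Hk2, the inducible hexokinase that phosphorylates glucose at the mitochondrial surface, stood at 0.52 and -0.26 at the low dose and 3.5 h, 1.67 and 0.86 at the high dose and 3.5 h, 0.78 and 0.59 at the low dose and 48 h, and 1.79 and 1.54 at the high dose and 48 h. The 4 high-dose arrays included the 4 highest values. It rose by 1.27 ± 0.29 at 3.5 h (2.41-fold, limma adjusted p = 0.0198) and by 1.66 ± 0.29 at 48 h (3.17-fold, adjusted p = 0.0159). Hk3, a hexokinase of myeloid cells, was near 0 on the early arrays, between -0.19 and -0.02. At 48 h it was at 0.70 and 0.88 at the low dose and at 0.80 and 1.12 at the high dose, and the latter passed (0.96 ± 0.21, adjusted p = 0.029). Hk1, the constitutive form, had means between -0.26 and 0.28, none called. A second Hk1 probe gave 1.02 at the high dose and 3.5 h, where the probe used gave -0.06.

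Phosphofructokinase commits sugar to glycolysis and has liver (Pfkl), muscle (Pfkm) and platelet (Pfkp) forms. Pfkl was at 1.97 and 0.22 at the low dose and 3.5 h, 0.71 and 0.48 at the high dose and 3.5 h, 1.01 and 0.73 at the low dose and 48 h, and 1.87 and 1.38 at the high dose and 48 h. Every array was above 0, with the widest gap between replicates in the early low-dose group. Only the late high-dose mean passed (1.62 ± 0.39, 3.08-fold, limma adjusted p = 0.0383). Pfkp stood at 0.57 and 0.49, 0.95 and 0.84, 0.38 and -0.08, and 0.22 and 0.41 in the same order of groups, and rose at the high dose and 3.5 h (0.89 ± 0.21, adjusted p = 0.0245). A second Pfkp probe gave -0.13 for that mean, so the call rests on 1 of its 2 probes. Pfkm had means between -0.33 and 0.48 and was not called.

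Aldolase splits the resulting sugar. Aldoc was at 1.31 and 0.63 at the low dose and 3.5 h, 1.23 and 1.27 at the high dose and 3.5 h, 0.91 and 0.03 at the low dose and 48 h, and 1.35 and 0.84 at the high dose and 48 h. All 8 values were above 0, and the early high-dose pair lay closest together. That pair passed (1.25 ± 0.29, 2.38-fold, limma adjusted p = 0.0225), and the late high-dose mean of 1.09 just missed (adjusted p = 0.0531). Aldoa, the main form in most tissues, had means between -0.45 and 0.06.

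In the ATP-yielding steps, Pgk1 and Pkm, which encode the 2 enzymes that make ATP, rose at the high dose and 48 h. Pgk1, phosphoglycerate kinase, was at 0.59 and -0.44 at the low dose and 3.5 h, 0.32 and 0.28 at the high dose and 3.5 h, 1.71 and 0.00 at the low dose and 48 h, and 3.26 and 1.58 at the high dose and 48 h. Replicate 1 of the late low-dose group was above replicate 2 of the late high-dose group, so those groups overlap. The late high-dose mean was 2.42 ± 0.51 (5.34-fold, limma adjusted p = 0.0277), the largest of the 17 enzymes in any group. Pkm, pyruvate kinase, was between -0.26 and 0.16 on the 4 early arrays, at 0.92 and 0.72 at the low dose and 48 h, and at 1.42 and 0.80 at the high dose and 48 h. Its late arrays were all above its early ones, and the late high-dose mean passed (1.11 ± 0.24, 2.16-fold, adjusted p = 0.0288).

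Ldha, which turns pyruvate into lactate and is a standard HIF-1 target, did not pass in any group. Its values were 0.15 and -0.35, 0.73 and -0.20, 0.67 and -0.49, and 1.40 and 0.17 in the early low-dose, early high-dose, late low-dose and late high-dose groups. Replicate 1 was above replicate 2 in every group, and the late high-dose mean of 0.78 ± 0.41 had a limma adjusted p of 0.247. Other Ldha probes gave 0.79 and -0.04 there. Among the other enzymes at the high dose and 48 h, Pgam1 was at 1.26 (adjusted p = 0.0913), Tpi1 at 0.63, Eno2 at 0.58, Gapdh at 0.17, Eno1 at 0.00 and Gpi1 at -0.04. In all, 5 of the 17 enzymes rose in that group, where 4.31% of all genes did, and 3 at the high dose and 3.5 h, where 10.2% did. None of the 17 (0) rose by limma at the low dose at 3.5 h or 48 h, where 2.75% and 0.153% of all genes did.

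Of the flux regulators, Pfkfb3, which makes the fructose bisphosphate that activates phosphofructokinase, rose at the high dose at both times. It was at 0.78 and -0.33 at the low dose and 3.5 h, 1.71 and 1.14 at the high dose and 3.5 h, 0.67 and -0.22 at the low dose and 48 h, and 2.20 and 1.25 at the high dose and 48 h. High-dose arrays did not overlap low-dose ones at either time. The high-dose means were 1.42 ± 0.38 (2.68-fold, limma adjusted p = 0.0347) and 1.73 ± 0.38 (3.31-fold, adjusted p = 0.0309). Pdk1, a mitochondrial kinase that inhibits pyruvate dehydrogenase, was at 3.27 and 1.68 at the high dose and 48 h, and at -1.16 and -1.72 at the high dose and 3.5 h, where its LECT2 channel was well above background on 1 of 2 arrays. Its standard error of 0.74 was wide, and neither mean passed (adjusted p = 0.0722 and 0.199). Pfkfb4, a relative of Pfkfb3, had means between -0.89 and 0.01. A second Pfkfb4 probe gave -1.67 at the high dose and 48 h, where the probe used gave -0.32.

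Among the oxygen-sensing genes, Hif1a varied most between replicates. It was at 0.22 and -0.06 at the low dose and 3.5 h, 2.11 and -1.09 at the high dose and 3.5 h, 0.74 and -0.47 at the low dose and 48 h, and 2.42 and 1.29 at the high dose and 48 h. The 2 early high-dose arrays had opposite signs, and the late high-dose mean of 1.85 ± 0.68 did not pass (limma adjusted p = 0.119). Egln3, the prolyl hydroxylase that HIF itself induces strongly, was at 0.33 and -1.08, -0.33 and -0.39, 0.92 and -0.41, and 3.39 and 2.21 in the same order of groups. Only the late high-dose arrays were far above 0 (2.80 ± 0.46, 6.98-fold, adjusted p = 0.0135), and with the files as recorded that mean was -0.35. A second Egln3 probe gave 2.12 in that group but also 2.03 at the low dose and 3.5 h, where the brighter probe gave -0.38. Egln1, the main prolyl hydroxylase of most cells, had means between -0.31 and 0.62.

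Epas1, the alpha subunit of HIF-2, was the one oxygen-sensing member below control throughout, on the probe used. It was at -1.82 and -1.67 at the low dose and 3.5 h, -2.09 and -2.20 at the high dose and 3.5 h, -1.41 and -1.17 at the low dose and 48 h, and -2.09 and -1.94 at the high dose and 48 h. All 8 arrays were below -1, and 3 groups passed: the early low dose (3.35-fold lower, limma adjusted p = 0.00691), the early high dose (4.42-fold lower, adjusted p = 0.00115) and the late high dose (4.05-fold lower, adjusted p = 0.00378). Its 2 other probes did not fall: one had means between -0.06 and 0.33, the other between 0.28 and 2.82. Averaged over probes, the early means of Epas1 were 0.08 (low dose) and 0.33 (high dose), so its direction depends on the probe.

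Of the 12 HIF targets, Adm and Ddit4 rose at the high dose at both times. Adm, adrenomedullin, a vasodilator peptide, was at 1.38 and 1.44 at the low dose and 3.5 h, 2.37 and 1.75 at the high dose and 3.5 h, -0.34 and -1.26 at the low dose and 48 h, and 1.92 and 1.93 at the high dose and 48 h. The late low-dose arrays were below 0, with the LECT2 channel well above background on 1 of the 2, and the other 6 were above 1. It rose at the early low dose (2.66-fold, limma adjusted p = 0.0342), the early high dose (4.17-fold, adjusted p = 0.00345) and the late high dose (3.8-fold, adjusted p = 0.0102). Ddit4, an inhibitor of mTORC1 signalling, was at 1.35 and -0.19, 1.91 and 1.55, 1.04 and 0.02, and 2.64 and 1.51 in the same order of groups. Its high-dose arrays were the 4 highest, with means of 1.73 ± 0.44 (3.32-fold, adjusted p = 0.0301) and 2.07 ± 0.44 (4.21-fold, adjusted p = 0.0284).

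Bnip3 and Bnip3l encode related receptors that direct mitochondria to autophagy; both rose late at the high dose, and only Bnip3l was called at 3.5 h. Bnip3 was at -0.07 and -1.12 at the low dose and 3.5 h, -0.02 and -1.03 at the high dose and 3.5 h, 1.14 and -0.41 at the low dose and 48 h, and 3.82 and 2.66 at the high dose and 48 h. The late high-dose arrays stood apart from the other 6 (3.24 ± 0.48, 9.43-fold, limma adjusted p = 0.0108), the largest mean of the 39 members in any group. Its 2 other probes gave 3.75 and 2.68 there, and with the scanner files as recorded the mean was -0.62 (adjusted p = 0.809). Bnip3l was at -1.38 and -0.90, -1.42 and -2.02, -0.09 and -0.44, and 1.16 and 0.83 in the same order of groups, below 0 on all arrays but the late high-dose pair. It fell at the early low dose (2.20-fold lower, adjusted p = 0.048) and the early high dose (3.29-fold lower, adjusted p = 0.00452), and rose at the late high dose (1.99-fold, adjusted p = 0.0457). All 4 Bnip3l probes had these signs in these 3 groups, but their late high-dose means ran from 0.27 to 1.08. With the files as recorded the 2 high-dose means were 0.07 and -1.15.

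Ero1l, an oxidase that forms disulfide bonds in the endoplasmic reticulum, was at 0.54 and 0.47 at the low dose and 3.5 h, 2.18 and 0.17 at the high dose and 3.5 h, 0.16 and 0.34 at the low dose and 48 h, and 2.02 and 2.19 at the high dose and 48 h. The late high-dose pair was high on both arrays, the early high-dose pair on replicate 1 only. The former passed (2.11 ± 0.41, 4.30-fold, limma adjusted p = 0.0226). P4ha1, a subunit of the collagen prolyl hydroxylase, was at 0.06 and -0.92, -0.96 and -0.48, 0.76 and 0.14, and 1.40 and 0.98 in the same order of groups. Its late high-dose mean was 1.19 ± 0.31 (2.28-fold, adjusted p = 0.0478), close to the threshold, and -0.17 with the files as recorded. A second P4ha1 probe gave 1.14 there, but 1.16 and 0.14 at the low and high dose at 3.5 h, where the probe used gave -0.43 and -0.72.

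Vegfa and Ankrd37 fell early. Vegfa, the main growth factor of blood vessels, was at -1.25 and -2.21 at the low dose and 3.5 h, -0.01 and -1.06 at the high dose and 3.5 h, 0.34 and 0.50 at the low dose and 48 h, and 0.42 and 0.84 at the high dose and 48 h. Both early low-dose arrays were below every other array, and that mean passed (3.32-fold lower, limma adjusted p = 0.0313). Its late values were all above 0 and did not pass. Ankrd37, an ankyrin-repeat gene, was at -0.56 and -1.31, -2.02 and -1.18, 0.98 and -0.52, and 1.46 and 0.99 in the same order of groups. It fell at the early high dose (-1.60 ± 0.40, adjusted p = 0.0281), where its LECT2 channel was well above background on 1 of 2 arrays. The remaining 4 targets, Hilpda, Mxi1, Ndrg1 and P4ha2, were not called. Hilpda, a lipid droplet protein, came nearest, at 2.19 and 1.39 at the high dose and 3.5 h (adjusted p = 0.0553).

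The difference between times was tested directly, as the effect at 48 h minus that at 3.5 h. At the high dose it passed for 5 members, all larger at 48 h, where 8.3% of all genes were called, 4.52% larger and 3.78% smaller: Bnip3 by 3.76 ± 0.68 (adjusted p = 0.024), Egln3 by 3.16 ± 0.64 (adjusted p = 0.0311), Ankrd37 by 2.82 ± 0.57 (adjusted p = 0.0296), Bnip3l by 2.71 ± 0.36 (adjusted p = 0.0136) and P4ha1 by 1.91 ± 0.43 (adjusted p = 0.0405), all by limma. These 5 were an oxygen-sensing gene and 4 HIF targets. Of the 17 enzymes 0 passed, but Pgam1 (2.21, adjusted p = 0.0589), Pkm (1.25, adjusted p = 0.0599) and Hk3 (1.07, adjusted p = 0.0631) came close. The larger difference of Pdk1, 3.91 ± 1.05, had an adjusted p of 0.06, and that of Pgk1, 2.12, one of 0.109. Of the 39 differences 31 were above 0, with a median of 0.48, against -0.04 over all genes. Without any 1 of the 4 high-dose arrays their calls were lost, as were nearly all calls over all genes. In those fits the differences ran from 1.67 to 2.15 for P4ha1 and from 3.18 to 4.35 for Bnip3. For each of the 5 both late arrays exceeded both early ones, so leaving out 1 array could not change a sign. With the scanner files as recorded all 5 changed sign (Egln3 -1.04, Bnip3 -1.46, Bnip3l -1.22, Ankrd37 -0.81, P4ha1 -0.33). With matched files and loess 10 members passed, these 5 among them, where 4681 of 25850 genes did, against 2170 of 26148 in the main fit. By the link of columns to scanner files, the early arrays sat on slide 1 and the late arrays on slide 2, so time and slide cannot be told apart.

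**Figure D2:**
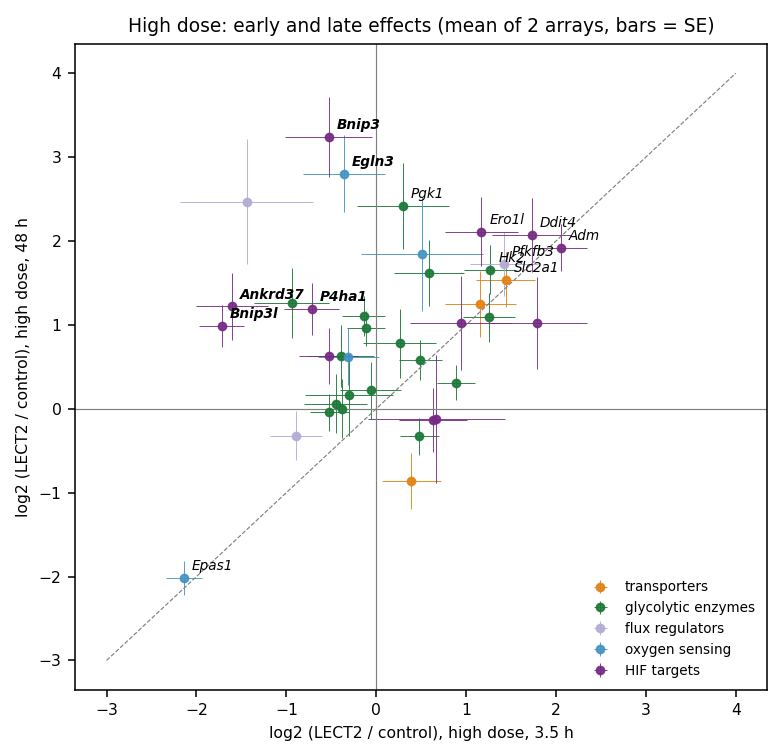
Mean log2 ratio of LECT2 over control for the 39 members at the high dose, at 3.5 h (horizontal) against 48 h (vertical); bars are standard errors, colours are roles, and the dashed line marks equal effects. Names in bold are the 5 genes whose difference between times passed, all above the line; Adm, Slc2a1, Hk2, Pfkfb3 and Ddit4 lie near it, well above 0 on both axes.

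**Figure D3:**
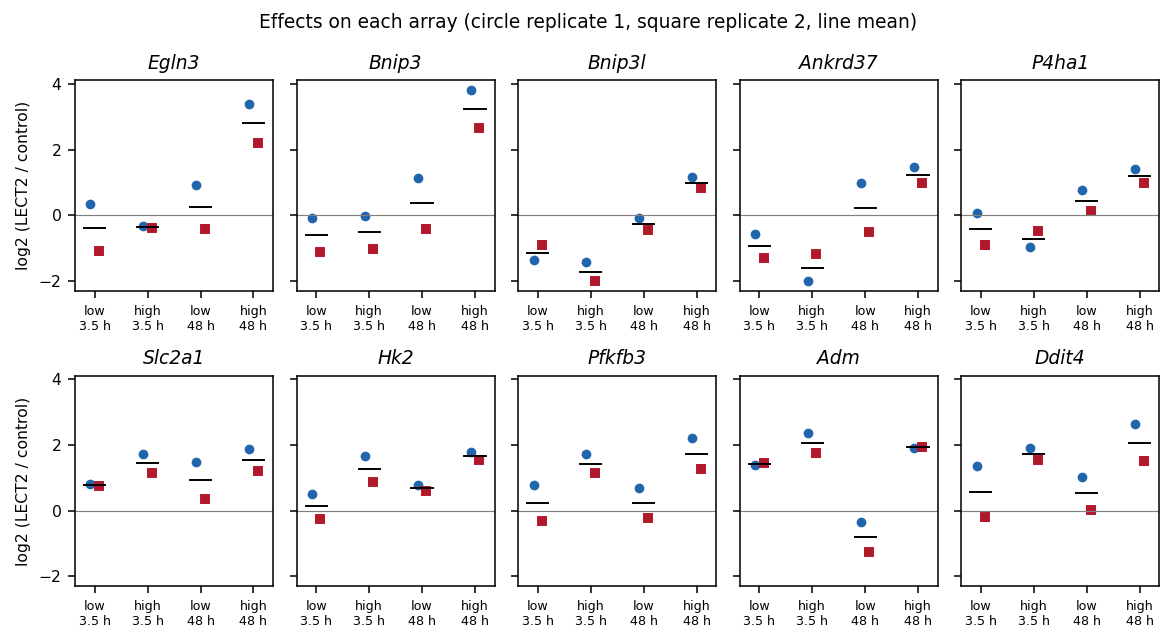
Log2 ratio of LECT2 over control on each array (circle, replicate 1; square, replicate 2; line, mean of 2) in the 4 groups. The upper row shows the 5 members that differed between times at the high dose, and the lower row the 5 that rose at the high dose at both times.

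At the low dose the difference between times passed for 0 members in limma, where 0.0994% of all genes were called (0.0153% larger, 0.0841% smaller), and 5 members had an unadjusted p under 0.05. The difference between doses (high minus low) passed for 0 members at 3.5 h and 0 at 48 h, where 0% of all genes were called at either time. At an unadjusted p under 0.05 there were 4 members at 3.5 h and 10 at 48 h, 9 of the latter larger at the high dose. So the 14 members called higher at the high dose and 48 h, against 0 at the low dose, are not shown to differ between doses. The median difference was 0.17 at 3.5 h and 0.62 at 48 h, against -0.03 over all genes at both times.

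Enzymes and HIF targets were set side by side array by array, as medians over the 17 and 12 genes. On the late high-dose arrays the enzymes stood at 1.11 and 0.41 and the targets at 1.43 and 0.91. On the early high-dose arrays the enzymes were at 0.03 and -0.02 and the targets at 0.92 and -0.16, with replicate 1 alone high. At the low dose the enzymes were at 0.34 and -0.26 at 3.5 h and at 0.64 and 0.02 at 48 h, and the targets at -0.04 and -0.91, and at 0.56 and -0.44. The range of the targets exceeded that of the enzymes on 7 arrays and was about equal on replicate 1 of the late low dose (1.77 and 1.76). The gap was widest on replicate 1 of the early high dose, where targets ran from -2.02 to 2.37 and enzymes from -0.60 to 1.67. In each group replicate 1 had the higher median of the enzymes and of the targets.

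**Figure D4:**
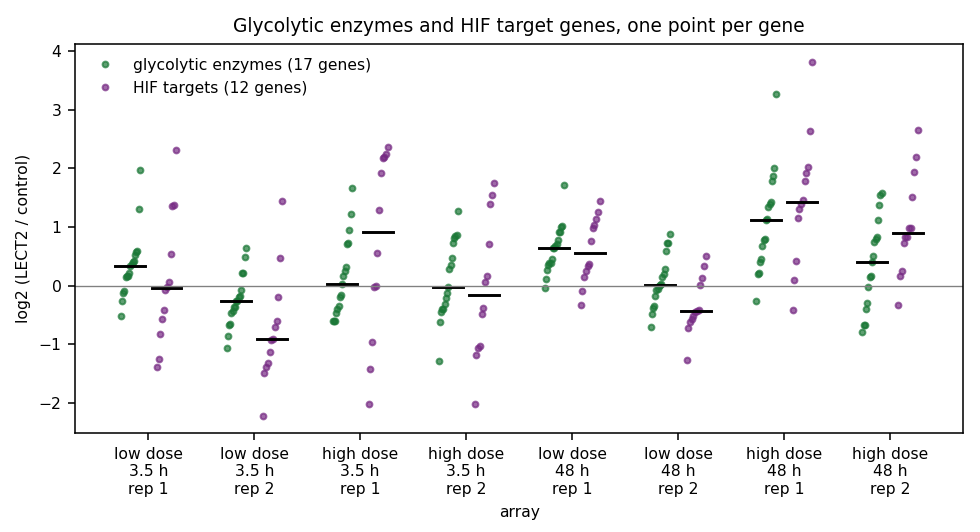
Log2 ratio of LECT2 over control of each of the 17 glycolytic enzymes (green) and 12 HIF targets (purple) on each of the 8 arrays; black lines are medians. Targets are spread both above and below 0 on the 3.5 h arrays, and the highest medians of both sets are on the high-dose 48 h array of replicate 1.

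Beyond the members, 4 wider lists held 88 genes, 85 of them measured: other genes of glycolysis and pyruvate, the pentose phosphate route, other HIF regulators and other HIF targets. In the late high-dose group 9 of the 85 rose and 6 fell, with a median of 0.13, where 4.31% of all genes rose and 6.91% fell. In the early high-dose group 10 rose and 18 fell, with a median of -0.22, where 10.2% of all genes rose and 11.7% fell. With the low dose 4 rose and 4 fell at 3.5 h (2.75% and 2.15% of all genes), and 0 passed in limma at 48 h (0.172% of all genes called). Of 35 other HIF targets measured, 6 rose and 4 fell at the late high dose, read against the same 4.31% and 6.91%. Fam162a, a mitochondrial protein, rose by 2.79 ± 0.37 (limma adjusted p = 0.00816). Plaur, the urokinase receptor, fell by 2.29 (adjusted p = 0.00655). Edn1, the vasoconstrictor endothelin, was higher by 2.07 at the low and 4.42 at the high dose at 3.5 h (adjusted p = 0.00806 and 0.000441). Cxcr4, a chemokine receptor, was lower by similar amounts at both doses, at -2.55 and -2.59 (adjusted p = 0.00813 and 0.0025).

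Of 32 other glycolysis and pyruvate genes, 3 rose and 1 fell at the late high dose, and 3 rose and 11 fell at the early high dose (10.2% and 11.7% of all genes). Slc2a6, a glucose carrier of lysosomes, rose at the early low dose (3.03 ± 0.27, limma adjusted p = 0.00281), the early high dose (4.02 ± 0.27, adjusted p = 0.000498) and the late high dose (1.34 ± 0.27, adjusted p = 0.0244). Of 8 pentose phosphate genes 0 rose in any group, and 2 fell at the early high dose, H6pd by 1.60 and Taldo1 by 0.94 (adjusted p = 0.0251 and 0.0296). Of 10 other HIF regulators 1 passed: Hif3a, a subunit that restrains HIF, was at -3.06 at the late high dose (adjusted p = 0.00908), and at -0.89 averaged over its probes, which did not pass.

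Markers of other cells were read beside these results. Of all genes, 11.2% were called at the late high dose and 21.9% at the early high dose. At the low dose 4.89% were called at 3.5 h and 0.172% at 48 h. Single calls in lists this short are therefore not read as an excess. In the late high-dose group, of the 8 measured T and NK cell markers 1 rose (Cd3g, 1.30) and 1 fell (Klrb1c, not well above background in the LECT2 channel there), and of 9 mesothelial and fibroblast markers 1 fell (Pdgfra, -3.51). Of 5 neutrophil markers 1 rose (S100a8, 2.99), of 5 dendritic cell markers 1 rose (Ccr7, 1.28) and 1 fell (Cd209a, well above background in the LECT2 channel on 1 of 2 arrays), and of 5 B cell, 5 mast cell and 2 red blood cell markers none did by limma. Of 9 macrophage markers 1 fell there (Gata6, -1.35). At the high dose and 3.5 h 2 macrophage markers fell (Lyz2, -2.01, and Csf1r, -1.03), and of the dendritic cell markers 3 rose, Zbtb46 (3.31) and Ccr7 (1.18) among them, and 1 fell (Cd209a, -1.64), with a list median of 1.18. In that list Xcr1 was well above background in the control channel on 1 of 8 arrays. Nkg7, of T and NK cells, rose at the early high dose by 1.12, and Pdgfra fell by 1.41. In the early low-dose group Timd4 (1.11, a macrophage marker) and Zbtb46 (2.72) rose, and Gata6 (-1.03) and Pdgfra (-1.33) fell, and at the low dose and 48 h no marker passed in limma. The list medians at the late high dose ran from -0.76 for mesothelium and fibroblasts to 0.49 for T and NK cells and for red blood cells, against 1.02 for the 39 members. The part of these cells in the members' changes was not tested.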

How the data were processed

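RNA of LECT2-treated (Cy3) and untreated (Cy5) cells was hybridised to 8 Agilent 2-colour arrays. The early time is 3.5 h in the titles and 3 h in the channel labels. Per the file headers, slides were read with Agilent Feature Extraction 10.7.3.1, which gave spot and processed intensity per channel and a log10 ratio of Cy5 over Cy3. The authors' deposited table holds log2 values, control over LECT2; how it was made is not given in the sources used here. Its 48 h columns equal a file's ratio within 0.01 for 98.6% to 99% of probes, its 3.5 h columns for 3.3% to 11.2%. Columns were linked to files by best correlation for detection and the matched alternatives.

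The sign was reversed. A probe was kept where at least 2 of 8 arrays had it well above background in a channel (31615 of 39428) and the brightest probe per gene was used. RefSeq (GRCm38.p6) named the genes. Limma 3.58.1 (R 4.3.3) was fitted with 1 mean per group over all 8 arrays (residual degrees of freedom, 4), with p adjusted by Benjamini-Hochberg over 26148 genes, after a test on simulated data. Precision is limited by the number of arrays, with a median standard error of 0.28 for an effect and 0.40 for a difference.

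The members and lists were chosen with earlier results of these data known. Genes reported by name were the members called in any comparison, Slc2a1, Hk2, Pfkfb3, Ldha, Hif1a, Egln3 and Vegfa in every case, and up to 4 called genes of each wider list. Other members were meant to be given by count or range. Single values are also given for some of these, near misses such as Pdk1, Hilpda and Pgam1 among them, picked with the results known. A promoter was shown for 3 called members of the glycolysis lists and 3 of the HIF targets. Replicates' deviations from their group means correlated between groups at r = 0.04, 0.17, 0.00, 0.20, -0.06 and 0.47, the last between the 48 h groups. Replicate 1 had the higher member median in every group. Because the labels do not tie a number to an experiment, replicate numbers were not taken as pairs in the main fit. An offset by replicate number, where present, therefore adds to the standard errors, and the block below allows for it. Alternatives were a replicate block, no background filter, trended robust variances, the mean over probes, median-centred columns, matched scanner files (loess after normexp with offset 50, or processed signals), files as recorded, and leaving out each array. Table columns not used numbered 0. Not every called gene of the wider lists is reported by name.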

Additional observations from a re-analysis of the deposited data

Results flagged for a closer look

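The effect of the high dose differed between 3.5 h and 48 h for 5 members by limma's test of the difference (log2, 48 h minus 3.5 h, Benjamini-Hochberg adjusted): Egln3 by 3.16 (adjusted p = 0.0311), Bnip3 by 3.76 (adjusted p = 0.024), Bnip3l by 2.71 (adjusted p = 0.0136), Ankrd37 by 2.82 (adjusted p = 0.0296) and P4ha1 by 1.91 (adjusted p = 0.0405). Of all genes 8.3% were called for this difference, 4.52% larger and 3.78% smaller at 48 h. Both late arrays exceeded both early ones for each of the 5. These genes were picked by that test on the same arrays, so this is not separate support. Bnip3l was the one member with calls in opposite directions at the 2 times.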

How the results depend on the processing

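The number of members called moved by over 1.5 times as follows, from 4 at the low dose and 3.5 h, 10 at the high dose and 3.5 h, 0 at the low dose and 48 h, 15 at the high dose and 48 h, and, for 48 h minus 3.5 h, 0 at the low and 5 at the high dose. Without the background filter (more genes tested) there were 1 at the early low dose, 9 at the late high dose and 2 for the high-dose time difference. With trended robust variances there were 2 at the early low dose. With the mean over probes there were 1 at the early low dose and 3 for the high-dose time difference. At the late high dose, not past the 1.5-fold cut, 10 of the 15 calls remained and 5 were lost. Calls over all genes there went from 2933 to 2926, so part of the member calls depends on the probe used. With matched scanner files and loess there were 16 at the early high dose, 1 at the late low dose, and 1 and 10 for the time differences at the low and high dose; with their processed signals there were 8 for the latter. With the files as recorded there were 0 at the early low dose, the early high dose, the late high dose and the high-dose time difference, and 1 at the late low dose. With the replicate block the high-dose time difference had 8, the late high dose 20 and the early high dose 14, and the counts of the other 5 comparisons, 4 at the early low dose and 0 elsewhere, were equal. Leaving out 1 array at a time left 1 array in a group. Most or all member calls of that group were lost. Every called member had both arrays of its group on the same side of 0, so no sign could change. Calls over all genes moved as well. At the early low dose 1279 became 733 unfiltered and 2396 with matched loess, and most were lost without its replicate 1. Unfiltered, 2933 at the late high dose became 1689. With matched loess 5724 at the early high dose became 8210, and 2170 for the high-dose time difference became 4681. That time difference had 2641 with processed signals, 2044 with the mean over probes and 940 unfiltered. With the replicate block it had 2456, the late high dose 3394 and the early high dose 6042, so calls over all genes rose there too. The early low dose had 753 with trended robust variances and 1278 with the mean over probes. Files as recorded left 51 at the late low dose, 1 at the late high dose and 0 elsewhere.

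Directions turned in these cases. Averaged over probes, Epas1 was at 0.08 and 0.33 at the low and high dose at 3.5 h. With files as recorded, at the high dose and 3.5 h Bnip3l was at 0.07 and Ankrd37 at 0.05, and at the high dose and 48 h Egln3 was at -0.35, Bnip3 at -0.62, Bnip3l at -1.15, P4ha1 at -0.17, Dlat at -0.22, Hif3a at 0.02, Pgm1 at -0.14 and Plaur at 0.89. The time differences there were -1.04 for Egln3, -1.46 for Bnip3, -1.22 for Bnip3l, -0.81 for Ankrd37 and -0.33 for P4ha1. The recorded files put other arrays in each group. The causes of the other changes were not tested. Signal over background limits Slc2a3 and Mxi1, which were well above background in the LECT2 channel on 4 and 2 of 8 arrays.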
